A study of Mus musculus with 6 samples.

Results

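The genes described here are 9 members of the mitochondrial pathway of cell death: the antiapoptotic genes Bcl2, Bcl2l1 and Mcl1, the effectors Bax and Bak1, the BH3-only genes Bad, Bid and Bbc3, and the initiator caspase gene Casp9. They were chosen by name, and their rows were found by gene symbol among 25168 genes with a value in retinal RNA. Of the 9 members, 8 had a value and 7 had more than 3 counted fragments in at least 1 library. Mcl1 was not analysed here. The RNA came from retinas of wild type mice, C57BL/6 in the labels and C57BL/6J in the study's methods, that had all received NMDA, an agonist of glutamate receptors, in the vitreous (2 μl of 100 mM). The labels give the age as postnatal week 5, and the study's methods give 4 weeks at the start. After 2 days the eyes received 2 μl of stem cell factor (SCF, the ligand of the receptor c-kit, 50 ng/μl) in the NMDA + SCF group or PBS in the NMDA + PBS group, and retinal cells were collected 1 week later. Each group had 3 libraries, none came from retinas without NMDA, and how many mice went into a library is not given in the sources used here. Whether the libraries of a group came from separate animals is not stated, so the p-values measure the spread between these libraries, which may be technical.

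BCL2 family proteins meet at the outer membrane of the mitochondrion. BCL2, BCL-XL (the product of Bcl2l1) and MCL1 hold the effectors BAX and BAK in check, and BH3-only proteins carry death signals to both sides by fitting a short helix, the BH3 motif, into a groove of their partners. Active BAX and BAK open the membrane, cytochrome c reaches APAF1 in the cytosol, and the resulting apoptosome activates caspase 9, which cleaves the executioner caspases. In the retina this route is known for its part in the death of retinal ganglion cells (RGCs) after axon injury, which depends on BAX.

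The BH3 motif is shown first because it is what most of these genes share. A leucine, 3 further residues, a small residue, aspartate and an acidic residue were searched for in the translated coding sequences of GENCODE M21 (GRCm38), and the pattern occurred 1 time in each of 7 members and not in Mcl1. The pattern is strict, and the missing match in Mcl1 was not read as absence of a BH3 motif. In the 30-base coding stretches below, the capitals mark the codons of the leucine, of the small residue and of the aspartate.
Bcl2-201: CTCcgccgggctGGGGATgacttctctcgt
Bcl2l1-201: CTGagagaggcaGGCGATgagtttgaactg
Bax-201: CTCcggcgaattGGAGATgaactggacagc
Bak1-202: CTTgctctcatcGGAGATgatattaaccgg
Bad-201: CTCcgaaggatgAGCGATgagtttgagggt
Bid-201: CTCgcccaaataGGCGATgagatggaccac
Bbc3-201: CTGcggcggatgGCGGACgacctcaacgcg
The small residue was glycine in Bcl2, Bcl2l1, Bax, Bak1 and Bid, serine in Bad and alanine in Bbc3. Pairs of stretches shared between 13 and 20 of the 30 bases, and Bax and Bid shared 20. Each stretch lay in a single coding exon. The antiapoptotic stretches were at chr1:106712572-106712601 (Bcl2, minus strand) and chr2:152829694-152829723 (Bcl2l1, minus strand), and those of the effectors at chr7:45465994-45466023 (Bax, minus strand) and chr17:27022528-27022557 (Bak1, minus strand). Those of the BH3-only genes were at chr19:6950792-6950821 (Bad, plus strand), chr6:120897286-120897315 (Bid, minus strand) and chr7:16313773-16313802 (Bbc3, plus strand). At least 1 transcript with a value in all 6 libraries contained the stretch in each of the 7 genes, so the levels given below include forms that hold it.

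The values are FPKM (fragments scaled to the length of the transcript and to the size of the library) of single transcripts, as deposited. Libraries had between 44925938 and 48783182 clean reads, and the FPKM values corresponded to between 3404334 and 4440582 counted fragments per library. The libraries did not share 1 list of transcripts: the 3 NMDA + SCF libraries and NMDA + PBS replicate 1 used list A, while the other two NMDA + PBS libraries used list B. Gene levels are sums over the 46933 Ensembl transcripts common to the lists, with 7529 found only in A and 8966 found only in B left out. Values below are in the order of replicates 1, 2 and 3. Whether a difference between list B and the NMDA + SCF libraries belongs to the list or to the treatment cannot be told apart, so for each member the fold change against NMDA + PBS replicate 1 is given as well. Pearson's r of log2(FPKM + 1) between NMDA + PBS replicate 1 and the NMDA + SCF libraries was 0.93 to 0.94 (14006 genes). With NMDA + PBS replicates 2 and 3, of its own group, it was 0.82 and 0.78, and the cause was not tested. Among the cell type markers, the summed level of 7 of 9 RGC markers was 227 to 464 FPKM in NMDA + PBS and 261 to 319 FPKM in NMDA + SCF, with Pou4f1 and Isl1 not listed. The groups overlapped. Summed markers of rods (6 of 6 genes, 1303 to 1601 against 1611 to 1885 FPKM), of bipolar cells (4 of 5, 254 to 291 against 295 to 320 FPKM) and of lens (7 of 8, 19.7 to 177 against 387 to 7244 FPKM) were higher in every NMDA + SCF library, and those of cornea (3 of 5, 13.1 to 46.3 against 3.13 to 11.98 FPKM) were lower. Summed markers of cones, amacrine cells, Müller glia, microglia, pigment epithelium, and endothelium and pericytes overlapped. Those of pigment epithelium (5 of 5) were 800, 371 and 194 FPKM in NMDA + PBS and 711 to 938 FPKM in NMDA + SCF. For microglia (4 of 6) they were 140, 290 and 35.4 against 219 to 301 FPKM. Taken singly, 3 of the 6 rod, 1 of the 4 bipolar and 4 of the 7 lens markers were higher in every NMDA + SCF library, and 2 of the 3 cornea markers lower. In addition, 1 of the 4 cone markers was lower and 1 of the 5 endothelium and pericyte markers higher. None of the listed markers of these cell types was at 0 in all libraries.

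Among the members, Bax was higher in all 3 NMDA + SCF libraries than in any NMDA + PBS library, by 2.03-fold on the log2(FPKM + 1) scale. The other members with enough fragments to compare, Bcl2, Bcl2l1 and Bbc3, overlapped between the groups. At the study's thresholds (an adjusted p of at most 0.001 with a change of 2-fold or more), limma with Benjamini-Hochberg adjustment over all genes called 0 of the 8 members and 0.0% of all 25168 genes. At an adjusted p of at most 0.05 it also called 0 of the 8 members and 0.0% of all genes. At an unadjusted p of at most 0.05, 1 of the 8 members (Bax) was past the threshold, beside 9.24% of all genes. Groups did not overlap for 1 member in the direction of NMDA + SCF, against 7.62% of all genes, and for 0 members in the other direction, against 6.45%. With only 8 members, counts of 1 and 0 are near these shares, so Bax was not read as setting the members apart from other genes. The median log2 fold change was −0.19 over the 8 members, 3 with a fitted value above 0 and 5 below. Bak1, among those above, and Bad, Bid and Casp9, among those below, rest on at most 10 fragments per library. Over all genes the median was −0.00585, with 12368 genes above 0 and 12800 below.

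**Figure D1:**
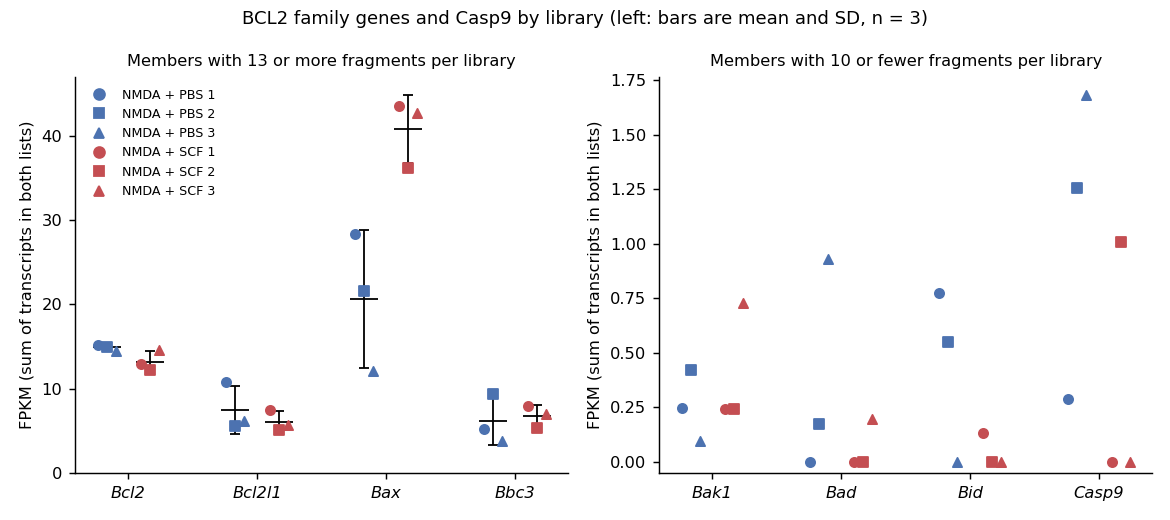
FPKM of each member (vertical axis), summed over the transcripts in both lists, in the 3 NMDA + PBS libraries (blue) and the 3 NMDA + SCF libraries (red), with bars for the mean and SD (n = 3) in the left panel. The left panel holds members with at least 13 fragments in every library, and Bax in NMDA + SCF, at 36.2 to 43.6 FPKM, lies above every NMDA + PBS value, while in the right panel each gene rests on at most 10 fragments per library.

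Among the members, as summed over the shared transcripts, levels per transcript length were highest for Bax and Bcl2. In NMDA + PBS, Bax had 12.1 to 28.3 FPKM and Bcl2 14.5 to 15.2 FPKM, and these ranges overlapped. In NMDA + SCF, Bax had 36.2 to 43.6 FPKM and lay above Bcl2, at 12.2 to 14.6 FPKM, in every library. Bcl2l1 and Bbc3 came next, overlapped each other in both groups and were below Bcl2 in every library. Bak1, Bad, Bid and the Casp9 transcripts shared by both lists did not pass 1.68 FPKM in any library, and their order among themselves rests on so few fragments that none is given.

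Bcl2, the founding antiapoptotic gene (chr1:106538178-106714274, minus strand), was the steadiest member. The 3 NMDA + PBS libraries had 15.2, 14.97 and 14.5 FPKM, and the 3 NMDA + SCF libraries had 12.9, 12.2 and 14.6 FPKM. NMDA + SCF replicate 3 lay within the NMDA + PBS range and the other two NMDA + SCF libraries below it. Means were 14.9 ± 0.353 and 13.2 ± 1.23 FPKM (SD, n = 3 each), on 303 to 453 fragments per library. The log2 fold change of FPKM + 1 was −0.16 with an SE of 0.18, and did not pass the test (limma with Benjamini-Hochberg adjustment over all genes, adjusted p = 0.743). It was −0.19 against NMDA + PBS replicate 1 and −0.15 against replicates 2 and 3, and −0.28 with upper quartile scaling.

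The Bcl2 locus makes a long form with a second coding exon (Bcl2-201) and a shorter one that reads on past the end of the first (Bcl2-202). The 2 forms part after chr1:106712305, and the capitals mark the 15 bases after that point.
Bcl2-201: gataacggaggctggGATGCCTTTGTGGAA
Bcl2-202: gataacggaggctggGTAGGTGCATGTCTG
The capitals of Bcl2-201 lie at chr1:106543384-106543398 and those of Bcl2-202 at chr1:106712290-106712304. Bcl2-201, which holds the full coding sequence of 708 bases, took 96.2 to 99.3% of the gene's FPKM. Bcl2-202 had 1 to 7 fragments per library, and the shares of the forms overlapped between the groups. Exons of Bcl2 overlap those of D630008O14Rik on the opposite strand.

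Bcl2l1, which encodes BCL-XL (chr2:152780668-152831728, minus strand), was set apart by 1 library. It had 10.8, 5.56 and 6.10 FPKM in the NMDA + PBS libraries and 7.49, 5.07 and 5.70 FPKM in the NMDA + SCF libraries. NMDA + PBS replicate 1 was the highest, and the other 5 libraries lay between 5.07 and 7.49 FPKM, on 25 to 39 fragments each. Means were 7.48 ± 2.87 and 6.09 ± 1.26 FPKM (SD, n = 3 each). The log2 fold change was −0.22 with an SE of 0.30 (limma with Benjamini-Hochberg adjustment, adjusted p = 0.796), −0.75 against NMDA + PBS replicate 1 and 0.0399 without it. The groups overlapped.

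The measured form of Bcl2l1 was not the full one. Bcl2l1-203, a model of 1403 bases whose annotated coding part covers 564 of the 699 bases of the full sequence, took between 86.8% and all of the gene's FPKM. Bcl2l1-201, which runs on into the final exon, was in list A only and was listed at 0 in all 4 libraries of that list. Bcl2l1-206 reads on past the same exon end, as Bcl2-202 does, and the 15 bases after the point where these forms part are in capitals.
Bcl2l1-201: gagaacggcggctggGACACTTTTGTGGAT
Bcl2l1-206: gagaacggcggctggGTAAGAACCACGCCC
The forms part after chr2:152829427, and the capitals lie at chr2:152782268-152782282 and chr2:152829412-152829426. Bcl2l1-206 had 0 to 4 fragments per library. How the counting divided fragments between overlapping forms is not given in the sources used here, so a listed 0 for Bcl2l1-201 is a value of the table and was not read as absence of that form.

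Mcl1, the third antiapoptotic member (chr3:95658788-95663176, plus strand), was not analysed here.

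Bax, the effector that oligomerises in the mitochondrial outer membrane (chr7:45461697-45466898, minus strand), had 28.3, 21.5 and 12.1 FPKM in the NMDA + PBS libraries and 43.6, 36.2 and 42.7 FPKM in the NMDA + SCF libraries. The lowest NMDA + SCF library was above the highest NMDA + PBS library. These levels rested on 106, 94 and 59 fragments in NMDA + PBS and on 164, 138 and 162 in NMDA + SCF. The means were 20.6 ± 8.15 and 40.8 ± 4.04 FPKM (SD, n = 3 each), and the spread was wider in NMDA + PBS.

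For Bax the log2 fold change was 1.02 with an SE of 0.30 and an unadjusted p of 0.0109 in limma. It did not pass after Benjamini-Hochberg adjustment over all genes in limma (adjusted p = 0.535), and over the alternatives with a test the adjusted p ranged from 0.0594 to 0.791. The exact permutation test, two-sided, gave p = 0.1, which is the smallest value that 3 against 3 libraries allow. Against NMDA + PBS replicate 1 alone, which shares the transcript list of the NMDA + SCF libraries, the log2 fold change was 0.51, and against NMDA + PBS replicates 2 and 3 it was 1.28. The summed levels of the rod, bipolar and lens markers were also higher in every NMDA + SCF library, as given above, and their part in the Bax difference was not tested. In RNA of whole retina, a change in the number of cells of a type and a change in RNA per cell cannot be told apart.

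**Figure D2:**
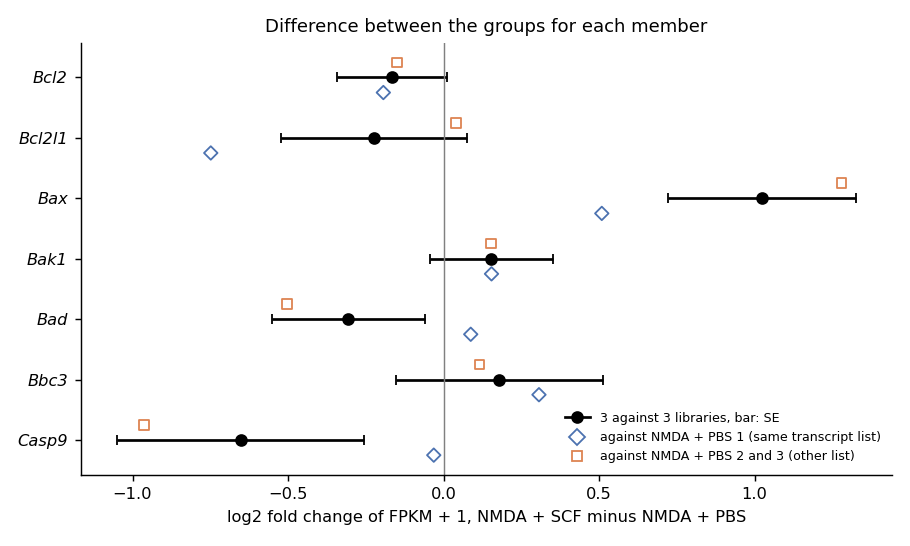
Log2 fold change of FPKM + 1, NMDA + SCF minus NMDA + PBS (horizontal axis), for the 7 members with more than 3 fragments in a library: black points with bars for the SE compare 3 with 3 libraries, blue diamonds compare with NMDA + PBS replicate 1 only and orange squares with replicates 2 and 3. Bax is at 1.02, with 0.51 and 1.28 for the separate comparisons, and for Bcl2l1 and Bad these 2 comparisons fall on opposite sides of 0.

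In the listed values, the Bax signal was assigned almost wholly to 1 transcript model. Bax-203 took between 98.2% and all of the gene's FPKM, with 28.3, 21.3 and 12.1 FPKM in NMDA + PBS and 43.2, 35.5 and 42.1 FPKM in NMDA + SCF. Bax-201, the model with the full coding sequence of 576 bases, had 0 to 2 fragments per library. As for Bcl2l1, how the counting divided fragments between overlapping forms is not given in the sources used here. The low values of Bax-201 were therefore not read as near absence of that form. The models differ at their 5′ end: Bax-201 joins its first exon to the second, while the first exon of Bax-203 runs on through that intron. The capitals mark the 15 bases before the second exon of Bax-201, and the lower case letters are shared.
Bax-201: AGCTTGGGAGCGGCGggcccaccagctctg
Bax-203: TCCTCTCTCCCCCAGggcccaccagctctg
The shared bases lie at chr7:45466257-45466271, the capitals of Bax-201 at chr7:45466742-45466756 and those of Bax-203 at chr7:45466272-45466286. Both models hold the stretch that encodes the BH3 motif. For Bax-203 the log2 fold change was 1.01 with an SE of 0.31 (limma with Benjamini-Hochberg adjustment over 45261 transcripts, unadjusted p = 0.0117, adjusted p = 0.591). At the transcript level limma called 0.0% of transcripts at the study's thresholds and 0.0% at an adjusted p of at most 0.05, and 7.98% had an unadjusted p of at most 0.05. Bax-206, a retained intron model of 548 bases in list B only, was measured in NMDA + PBS replicates 2 and 3, at 2.29 and 2.47 FPKM. With this model counted, and taken as 0 in the libraries of list A, the gene's log2 fold change was 0.89. Gm45808, which the annotation places on the same strand over part of the Bax exons, was not analysed here.

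**Figure D3:**
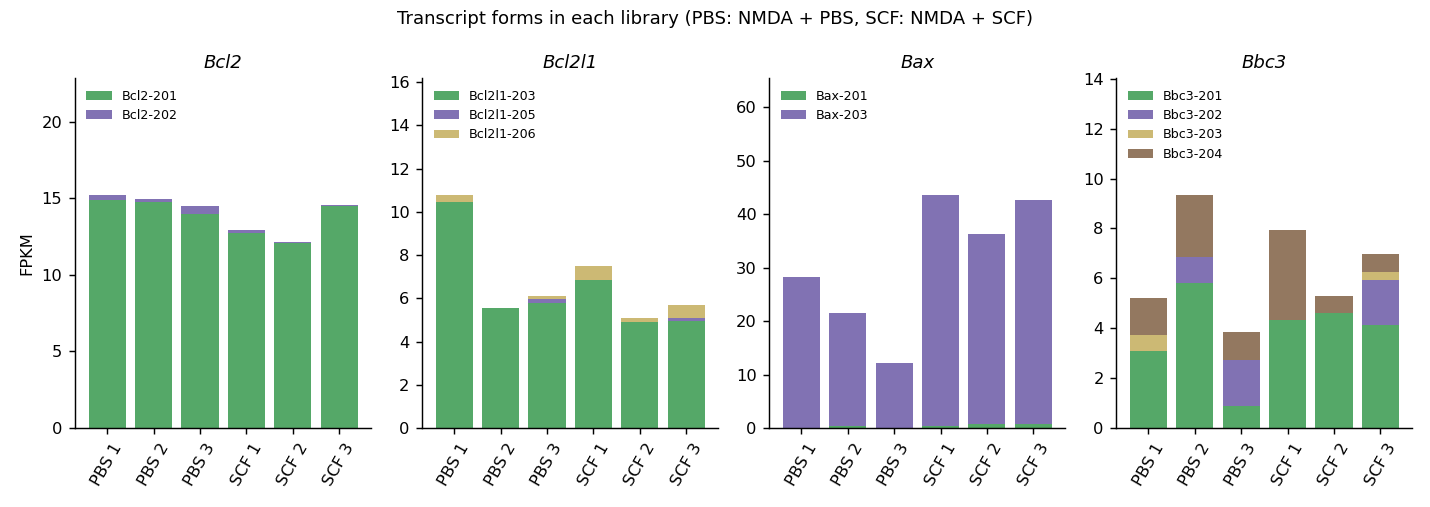
FPKM (vertical axis) of each transcript form in both lists, stacked, for Bcl2, Bcl2l1, Bax and Bbc3 in each library (horizontal axis). In the listed values, Bcl2 and Bax each rest almost wholly on 1 form, Bcl2-201 and Bax-203, in all 6 libraries, while Bbc3 is divided between up to 4 forms in a library.

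Bak1, the second effector (chr17:27019810-27029009, minus strand), was near the floor of detection. It had 0.246, 0.421 and 0.0943 FPKM in NMDA + PBS and 0.245, 0.241 and 0.727 FPKM in NMDA + SCF, from 1 to 6 fragments per library. All of them were assigned to Bak1-202, and Bak1-201 was listed at 0 throughout. The groups overlapped, with a log2 fold change of 0.15 and an SE of 0.20 (limma with Benjamini-Hochberg adjustment, adjusted p = 0.787), or 0.60 with voom on fragments. Exons of Bak1 overlap those of Ggnbp1 on the opposite strand, and whether the counting used strand is not given in the sources used here. Bax exceeded Bak1 in every library, by 51.1- to 178-fold in FPKM, a ratio that rests on the few Bak1 fragments.

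Bbc3, which encodes the BH3-only protein PUMA, a target of p53 (chr7:16308393-16318205, plus strand), was the only BH3-only member with more than 6 fragments in any library. It had 5.19, 9.34 and 3.84 FPKM in NMDA + PBS and 7.95, 5.30 and 6.97 FPKM in NMDA + SCF, on 13 to 48 fragments. The highest and the lowest value both belonged to NMDA + PBS. Means were 6.12 ± 2.87 and 6.74 ± 1.34 FPKM (SD, n = 3 each), with a log2 fold change of 0.18 and an SE of 0.33 (limma with Benjamini-Hochberg adjustment, adjusted p = 0.857). It was 0.52 with voom on fragments and 0.0736 with upper quartile scaling.

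Among the 4 members with at least 13 fragments in every library, Bbc3 was the one divided most between forms. Bbc3-201, which holds the full coding sequence of 579 bases, took between 22.6 and 86.6% of the gene's FPKM. It had 3.08, 5.82 and 0.869 FPKM in NMDA + PBS and 4.34, 4.59 and 4.14 FPKM in NMDA + SCF. The 3 NMDA + SCF values lay close together and within the NMDA + PBS range, and the log2 fold change of the form was 0.52 with an SE of 0.46 (limma with Benjamini-Hochberg adjustment, adjusted p = 0.713). Bbc3-202, of 485 bases, had 0, 1.04 and 1.86 FPKM in NMDA + PBS and 0, 0 and 1.79 FPKM in NMDA + SCF, on at most 4 fragments. Bbc3-204, of 405 bases, had 1.45, 2.48 and 1.11 FPKM in NMDA + PBS and 3.60, 0.710 and 0.714 FPKM in NMDA + SCF, on at most 5 fragments. Neither short form contains the stretch that encodes the BH3 motif, and both overlapped between the groups.

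Bad, whose product binds BCL2 and BCL-XL and is held back when phosphorylated by AKT (chr19:6941861-6951899, plus strand), had 0, 0.173 and 0.931 FPKM in NMDA + PBS and 0, 0 and 0.199 FPKM in NMDA + SCF. This was 6 fragments in NMDA + PBS replicate 3 and 1 or 0 in each of the other 5 libraries. The fitted log2 fold change was −0.31 with an SE of 0.25 (limma with Benjamini-Hochberg adjustment, adjusted p = 0.688), and it was 0.0874 against NMDA + PBS replicate 1 and −1.08 with a pseudocount of 0.1. It was −0.0831 with all listed transcripts, those of only 1 list counted as 0 in the other. Exons of Bad overlap those of Gpr137 on the opposite strand.

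Bid, which caspase 8 cleaves to link death receptors to the mitochondrion (chr6:120891930-120916853, minus strand), had 0.776, 0.549 and 0 FPKM in NMDA + PBS and 0.133, 0 and 0 FPKM in NMDA + SCF. In these shared transcripts no library had more than 2 fragments, which is under the floor of 3 that a count of 0 allows, so no fold change is given and a difference was not detectable at this depth. In list A only, Bid-203 had 3 fragments in NMDA + PBS replicate 1 and 0 in each NMDA + SCF library, and Bid-205, a retained intron model, had 2 fragments in NMDA + PBS replicate 1 and 0, 0 and 2 in NMDA + SCF. With a single control library on that list, these forms had no test.

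Casp9, the caspase of the apoptosome (chr4:141793612-141815976, plus strand), could be compared only through transcripts with no annotated coding sequence. The shared transcripts summed to 0.290, 1.26 and 1.68 FPKM in NMDA + PBS and 0, 1.01 and 0 FPKM in NMDA + SCF, from 2, 5 and 10 fragments and from 0, 2 and 0. The groups overlapped, and the fitted log2 fold change was −0.65 with an SE of 0.40 (limma with Benjamini-Hochberg adjustment, adjusted p = 0.607). Against NMDA + PBS replicate 1 it was −0.0315 and against replicates 2 and 3 it was −0.96. The fitted size depended on the setting at so few fragments: it was −2.14 with a pseudocount of 0.1 and −2.50 with voom on fragments (limma, unadjusted p = 0.0141, adjusted p = 0.447), and −2.51 when transcripts of only 1 list were counted as 0 in the other (unadjusted p = 0.0465, adjusted p = 0.487). The full form, Casp9-201, with a coding sequence of 1362 bases, was in list B only. In NMDA + PBS replicates 2 and 3 it stood at 16.5 and 12.7 FPKM, on 256 and 219 fragments. In list B, then, the coding form carried most of the Casp9 signal, and no NMDA + SCF library was measured for it. Exons of Casp9 overlap those of Cela2a and Ctrc on the opposite strand.

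Casp9-204, the longer of the 2 shared transcripts, continues past the exon at which Casp9-201 is spliced, and the 15 bases after that exon end are in capitals.
Casp9-201: gagctcatgatgtctGTGTTCCAGGGAAGA
Casp9-204: gagctcatgatgtctGTGAGTATCAAGAGA
The shared exon ends at chr4:141796834, the capitals of Casp9-201 lie at chr4:141803821-141803835 and those of Casp9-204 at chr4:141796835-141796849. Casp9-204 had 2, 4 and 9 fragments in NMDA + PBS and 0, 1 and 0 in NMDA + SCF. The lowest NMDA + PBS and the highest NMDA + SCF library were 1 fragment apart, both under the floor of 3, so no separation is read from them. The log2 fold change was −0.59 (limma with Benjamini-Hochberg adjustment across transcripts, adjusted p = 0.591) and −0.30 against NMDA + PBS replicate 1.

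Ratios within a library set the effector against its inhibitors. The Bax to Bcl2 ratio of FPKM was 1.86, 1.44 and 0.832 in NMDA + PBS and 3.38, 2.97 and 2.93 in NMDA + SCF, so the means were 1.38 ± 0.517 and 3.09 ± 0.246 (SD, n = 3 each) and the groups did not overlap. The Bax to Bcl2l1 ratio was 2.62, 3.88 and 1.98 in NMDA + PBS and 5.82, 7.14 and 7.50 in NMDA + SCF, again without overlap. Both ratios carry the Bax difference in the numerator and are no further evidence for it. The Bbc3 to Bcl2 ratio was 0.341, 0.624 and 0.264 in NMDA + PBS and 0.616, 0.436 and 0.478 in NMDA + SCF, and the Bcl2 to Bcl2l1 ratio was 1.41, 2.69 and 2.38 against 1.72, 2.40 and 2.56. These last ratios overlapped between the groups.

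**Figure D4:**
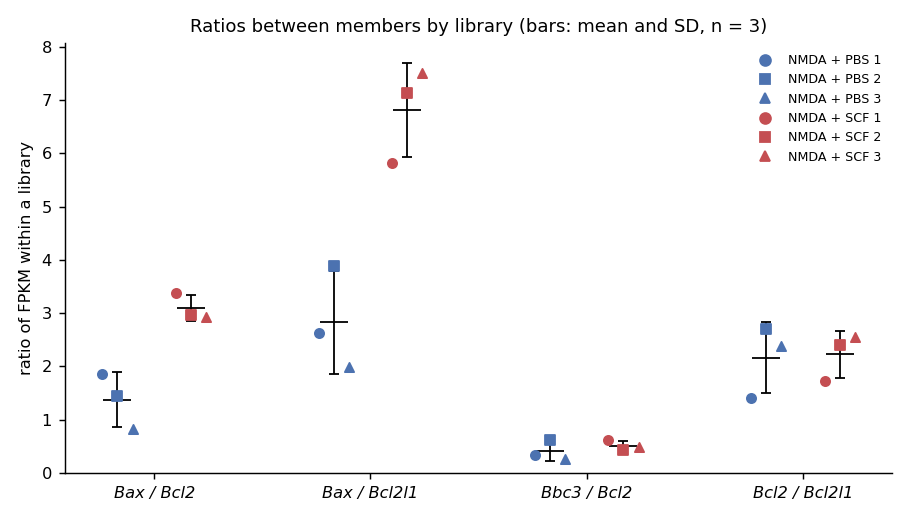
Ratio of the FPKM of 2 members within each library (vertical axis) for the 3 NMDA + PBS libraries (blue) and the 3 NMDA + SCF libraries (red), with bars for the mean and SD (n = 3). The Bax to Bcl2 ratio is 0.832 to 1.86 in NMDA + PBS and 2.93 to 3.38 in NMDA + SCF, and the 2 ratios without Bax overlap between the groups.

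The genes around the members were taken from 13 lists of the same pathway with 82 genes, of which 71 had a value. Limma called 0 of the 71 at the study's thresholds and 0 at an adjusted p of at most 0.05. At an unadjusted p of at most 0.05, 5 had a positive difference (Tnfrsf21, Dffa, Capns1, Sesn2 and Akt1) and 3 a negative one (Birc3, Mdm4 and Ccng1), beside 9.24% of all genes. Groups did not overlap for 7 genes in the direction of NMDA + SCF, beside 7.62% of all genes, and for 4 in the other direction (Bnip3, Birc3, Mdm4 and Ccng1), beside 6.45%. Both counts are near these shares. The median log2 fold change over the 71 genes was 0.0604.

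Upstream of the mitochondrion, 0 of 5 further antiapoptotic genes were past an unadjusted p of 0.05. Bcl2l2, which encodes BCL-W, had 7.23, 7.17 and 3.14 FPKM in NMDA + PBS and 3.46, 2.58 and 3.07 FPKM in NMDA + SCF, with a log2 fold change of −0.70 that turned to 0.15 when only protein-coding transcripts were summed. Bcl2l10 had the highest mean of the list and 1.65 to 6.65 FPKM against 3.08 to 7.42 FPKM. Of 8 further BH3-only and effector genes 0 were past that threshold, and the mitophagy receptor gene Bnip3 had 111, 116 and 116 FPKM in NMDA + PBS and 88.5, 97.5 and 99.1 FPKM in NMDA + SCF, with a log2 fold change of −0.27. Of the 3 measured BCL2-like genes 0 were past it. Bcl2l15 had 8.95 to 11.3 FPKM against 6.06 to 10.4 FPKM, and Bcl2l13 was at most 0.867 FPKM.

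Among regulators of BAD and MCL1, 1 gene of 10 was past an unadjusted p of 0.05, beside 9.24% of all genes. It was Akt1, whose kinase phosphorylates BAD. It had 76.8, 72.6 and 45.8 FPKM in NMDA + PBS and 92.1, 99.96 and 98.9 FPKM in NMDA + SCF, a log2 fold change of 0.60 with an SE of 0.23 (limma, unadjusted p = 0.0309, adjusted p = 0.535). As for Bax, NMDA + PBS replicate 3 was the lowest library. Ywhab, which encodes a 14-3-3 protein that binds phosphorylated BAD, had 291 to 376 FPKM against 356 to 362 FPKM.

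The p53 list, which bears on Bax and Bbc3 as p53 targets, had 1 gene with a positive and 2 with a negative difference at that threshold among 8, beside 9.24% of all genes. Sesn2 had 36.9, 31.1 and 26.6 FPKM in NMDA + PBS and 48.2, 41.8 and 42.0 FPKM in NMDA + SCF. Mdm4, a p53 inhibitor, had 7.12, 10.9 and 13.8 FPKM against 5.97, 3.81 and 5.30 FPKM. Its log2 fold change was −0.45 against NMDA + PBS replicate 1 and −1.15 against replicates 2 and 3. Ccng1 had 11.5, 86.6 and 121 FPKM in NMDA + PBS and 8.23, 6.38 and 6.67 FPKM in NMDA + SCF. Here the 2 libraries of list B held the high values, and against NMDA + PBS replicate 1 the Ccng1 log2 fold change was −0.63 in place of −2.67.

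At and beyond the mitochondrion, 0 of 3 voltage-dependent anion channel genes, 0 of 5 genes for the apoptosome and released proteins and 0 of 5 genes of the list of other caspases were past an unadjusted p of 0.05. Vdac1 had 442, 343 and 206 FPKM in NMDA + PBS and 364, 360 and 435 FPKM in NMDA + SCF. Cycs, the cytochrome c gene, had 10.03 to 18.2 FPKM against 12.5 to 16.1 FPKM, and Htra2 had 2.71 to 6.58 FPKM against 4.94 to 8.40 FPKM. Casp6 had 5.43 to 7.62 FPKM against 5.04 to 9.27 FPKM, and Casp2 had 17.2 to 23.5 FPKM against 23.1 to 29.6 FPKM.

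Among inhibitors of apoptosis, 1 of 6 genes was past that threshold, beside 9.24% of all genes. Birc3 had 0.926, 2.25 and 2.22 FPKM in NMDA + PBS and 0, 0.809 and 0 FPKM in NMDA + SCF, on at most 11 fragments, and Xiap, with the highest mean, had 14.0 to 16.4 FPKM against 12.97 to 18.8 FPKM. Of the 4 caspase substrate genes 1 was past that threshold, beside the same share of all genes. Dffa, the inhibitor and chaperone of the DNase that caspases release, had 67.9, 54.8 and 43.0 FPKM in NMDA + PBS and 89.6, 90.2 and 88.6 FPKM in NMDA + SCF, a log2 fold change of 0.71 with an SE of 0.20 (limma, unadjusted p = 0.00870, adjusted p = 0.535). Acin1, a caspase substrate in chromatin condensation, had 78.6, 65.4 and 57.0 FPKM against 92.0, 81.3 and 92.7 FPKM.

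Of the 8 measured genes of the death receptor and necroptosis list, 1 was past an unadjusted p of 0.05, beside 9.24% of all genes. This was the receptor gene Tnfrsf21 (DR6), with 17.5, 26.3 and 16.1 FPKM in NMDA + PBS and 25.7, 30.2 and 31.2 FPKM in NMDA + SCF. Ngfr, the gene of the p75 receptor, had the highest mean of that list, with 43.0 to 71.8 FPKM against 69.0 to 83.3 FPKM. Of the 3 measured calpain genes, Capns1 had 0, 0.419 and 0.375 FPKM against 1.95, 1.92 and 0.964 FPKM, on at most 4 fragments. Its log2 fold change of 1.04 turned to −0.76 when all listed transcripts were summed, those of only 1 list counted as 0 in the other. Cast, the calpain inhibitor gene, had 0.245 to 2.66 FPKM against 0.0559 to 1.92 FPKM.

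**Figure D5:**
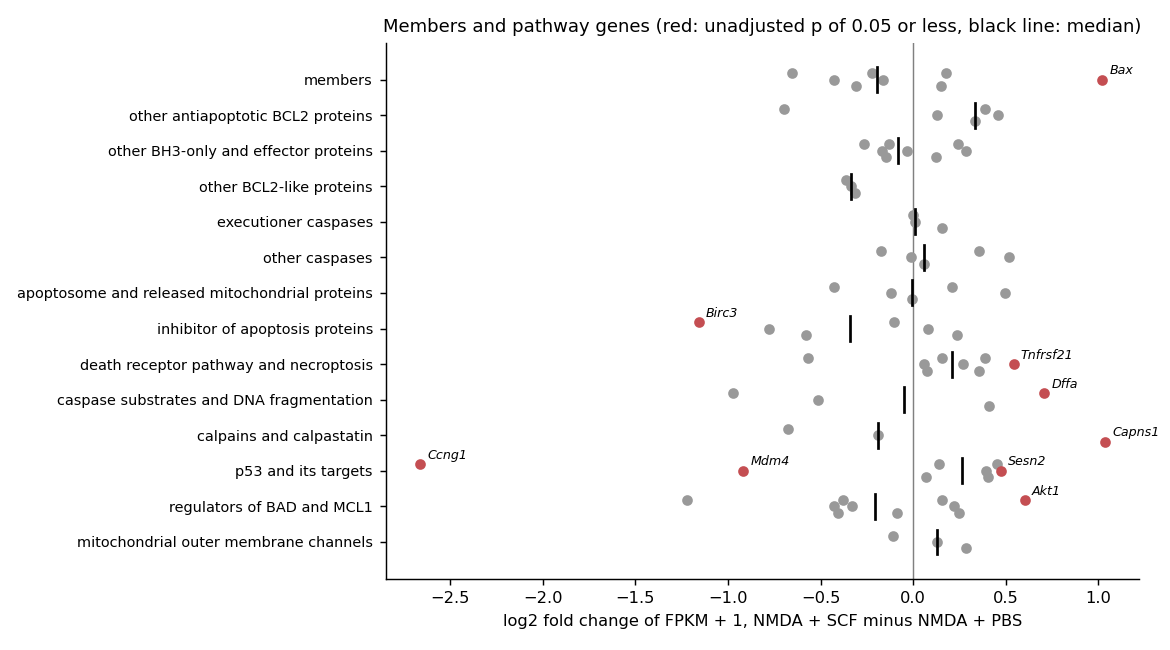
Log2 fold change of FPKM + 1, NMDA + SCF minus NMDA + PBS (horizontal axis), for each gene of the members and of the 13 pathway lists (rows), with the list's median as a black line and genes at an unadjusted p of 0.05 or less in red with their names. Bax, at 1.02, is the only red point among the 8 members, and 8 of the 71 pathway genes are red, 5 to the right of 0 and 3 to the left.

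The gene whose levels followed a member most closely was found by Pearson's r of log2(FPKM + 1) over the 6 libraries among 78 genes of the lists. It was Acin1 for Bax (r = 0.98), Fbxw7 for Bcl2 (r = 0.85), Bmf for Bcl2l1 (r = 0.81) and Naip5 for Bbc3 (r = 0.96). Each is the highest of many values over 6 points that share their group, library depth and transcript list, so they are given as a description. The pattern that Bax and Acin1 shared was a lowest value in NMDA + PBS replicate 3, with every NMDA + SCF library above the NMDA + PBS range. Of the 7 pathway genes that were higher in every NMDA + SCF library, 6 had their lowest value in that replicate, and so had 60.1% of the 1919 such genes among all genes.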

How the data were processed

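RNA of total retinal cells was enriched with oligo (dT) beads and sequenced on an Illumina HiSeq by the authors, and the reads were filtered. The authors deposited FPKM values per transcript for each library, without pooling replicates, and a table of library totals, from which only the clean read counts deposited by the authors were used. The aligner and the counting tool are not given in the sources used here. The submitters' processing notes name the build mm9. Of 63313 Ensembl transcripts found in GENCODE M21 (GRCm38), 98.2% had the same positions there, so coordinates are on GRCm38, and transcript sequences were read from that release.

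FPKM was summed per gene symbol over the 46933 Ensembl transcripts in both lists. Merged transcripts without a gene name (8.85 to 11.4% of FPKM) were left out. Genes at 0 in all 6 libraries were removed, and log2(FPKM + 1) was compared between 3 and 3 libraries with limma 3.58.1 (R 4.3.3, variance trend), with Benjamini-Hochberg adjustment over all genes. For low genes a fold change on this scale is understated. Single genes were also compared by a two-sided exact permutation test. FPKM times transcript length gave whole fragments for 98.4 to 98.5% of values (within 0.05 of a fragment), and these fragments served for depth, a floor of 3 and an alternative fit with voom. They were 14.1 to 18.2% of the clean read pairs, and floors cover counting error only. The fit was also run on simulated counts, with the same spread set for every gene and no difference in transcript list. That run cannot show how the fit behaves with the differences between these control libraries. Python 3.11.15 served for the tables, sequences and plots.

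The members and lists were chosen with earlier results of these data known. All members were named, with their shared transcripts of 1 FPKM or more in some library, and of each pathway list the genes with the smallest p and the highest mean FPKM. Genes behind a count of 5 or fewer were also named. The result of 1 gene that this rule names is not reported here. Bax-201, Bcl2-202, Bcl2l1-206, Casp9-204 and the transcripts of only 1 list were named after their values were seen, to show how the forms differ. Alternatives were a pseudocount of 0.1, a mean FPKM of at least 1, upper quartile and median-of-ratios scaling, a replicate block, all listed or only protein-coding transcripts, voom, NMDA + PBS replicate 1 alone as control and each library left out. With all listed transcripts, a transcript of only 1 list counted as 0 in the libraries of the other.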

Additional observations from a re-analysis of the deposited data

How the results depend on the processing

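Bax had log2 fold changes of 0.51 to 1.28 over the 15 alternatives. As its groups did not overlap, its sign could not turn with a library left out, another pseudocount or NMDA + PBS replicate 1 alone as control. The replicate block and the filter on mean FPKM leave the Bax estimate as it is, so the kept sign is no further evidence. The value was 0.70 when NMDA + PBS replicate 3 was left out and 1.28 when replicate 1 was, and it did not pass the adjusted threshold in any alternative with a test. Without NMDA + PBS replicate 1, the library that shares its list with NMDA + SCF, all remaining controls used list B and the numbers of calls were the highest. Leaving out each library in turn gave 0 to 192 genes and 0 to 278 transcripts at the study's thresholds, and 1149 to 4331 genes and 1931 to 6428 transcripts at an unadjusted p of at most 0.05. With protein-coding transcripts only, 1451 genes were at that unadjusted p, and with a mean FPKM of at least 1, 2363 transcripts, in each case with fewer features tested. Without NMDA + PBS replicate 1, Dffa (limma, adjusted p = 0.0398) and Ccng1 (adjusted p = 0.000400) passed an adjusted p of 0.05. The sign turned for Bcl2l1 over the libraries left out (−0.38 to 0.0399, above 0 without NMDA + PBS replicate 1), Bak1 (−0.00483 to 0.25, below 0 without NMDA + SCF replicate 3), Bbc3 (−0.063 to 0.48, below 0 without NMDA + PBS replicate 3), Casp6 (−0.0224 to 0.36), Vdac1 (−0.0173 to 0.53) and the form Bbc3-204 (−0.62 to 0.0992). It also turned for Bad (0.0874) and Vdac1 (−0.20) against NMDA + PBS replicate 1 alone, for Bcl2l2 (0.15) and Casp6 (−0.27) with protein-coding transcripts only and for Capns1 (−0.76) with all listed transcripts. That last setting counts a transcript of only 1 list as 0 in the libraries of the other. For these turns of sign the cause was not tested. Same-numbered libraries did not deviate together (correlations of −0.0502, −0.0464 and −0.0771 over 14006 genes), and libraries of different numbers gave 0.0136 to 0.0517. With 3 libraries per group this check cannot exclude a pairing, and the main fit assumed none. With the replicate block Bax had a log2 fold change of 1.02 (limma, adjusted p = 0.657), 0 genes and 0 transcripts were called, and 1856 genes and 2814 transcripts had an unadjusted p of at most 0.05. Depth limits Bak1, Bad, Bid and the shared Casp9 transcripts, with at most 10 fragments per library.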
